A study of Mus musculus with 12 samples.

Results

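The small RNA silencing machinery is the set of proteins that makes microRNAs, loads them or an siRNA onto an Argonaute protein and represses the bound mRNA. Its transcripts are described here in the hippocampus of mice that had been given an siRNA. The 10 genes are Drosha, Dgcr8, Dicer1, Tarbp2, Ago1, Ago2, Ago3, Ago4, Tnrc6a and Tnrc6b. They were taken by name from the rows of the expression tables that are not typed as intronic, and they hold 9 of the 22306 loci. Ago2, Ago4, Dicer1, Drosha, Dgcr8, Tarbp2, Tnrc6a and Tnrc6b each have 1 locus, while Ago1 and Ago3 share 1. The 8 single-gene loci are among the 18387 with a mean of at least 1 FPKM (fragments per unit of transcript length and of library size) and were tested. The shared locus, at a mean of 0.560 FPKM, is not.

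RNA-seq was done on 12 libraries of hippocampus from C57BL/6 mice, 4 in each of 3 groups. Each mouse had received 10 µg of siRNA through the nose and was killed 3 days later. The siRNA was a scrambled control in the group siScramble, one against Hdac4, a histone deacetylase gene, in siHdac4, and one against Bdnf, a neurotrophin gene, in siBdnf. Control mice therefore carried a duplex RNA as well, and there was no group without siRNA. The sources used here do not state the age of the mice, nor is it stated that each library is a separate mouse, so p-values measure the spread between libraries, which may be partly technical.

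MicroRNAs begin as hairpins in long nuclear transcripts. Drosha, a nuclease, and Dgcr8, its RNA-binding partner, form the Microprocessor, which cuts the hairpin free. Dicer1 with Tarbp2 trims it in the cytoplasm to a short duplex, and 1 strand enters an Argonaute protein. Argonaute binds Tnrc6 proteins, the scaffolds that recruit deadenylases to the mRNA. An siRNA supplied ready-made bypasses the Microprocessor and is loaded directly, and Ago2 is the mammalian Argonaute known for cutting a fully matched target. In hippocampal neurons this machinery also works in dendrites near synapses.

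Besides their proteins, Dgcr8 and Tnrc6b transcripts contain microRNA hairpins themselves, and their sequences are shown because they are themselves substrates of the pathway that their host genes encode. In Dgcr8 the hairpins are also known as places where the Microprocessor cuts the mRNA of its own subunit. The mature sequences are RefSeq's on GRCm38.p6, written 5′ to 3′ with the seed, bases 2 to 8, in capitals. The 4 in Dgcr8 lie on the minus strand of chromosome 16, those of miR-1306 inside an exon's coding sequence and those of miR-3618 inside an exon's UTR. The 1 in Tnrc6b lies on the plus strand of chromosome 15 inside an exon's UTR. No seed is shared among the 5.
mmu-miR-1306-3p at chr16:18284248-18284268: aCGUUGGCucugguggugaug
mmu-miR-1306-5p at chr16:18284288-18284310: cACCACCUccccugcaaacgucc
mmu-miR-3618-3p at chr16:18284562-18284583: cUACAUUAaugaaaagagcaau
mmu-miR-3618-5p at chr16:18284602-18284623: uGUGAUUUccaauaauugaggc
mmu-miR-5113 at chr15:80940049-80940071: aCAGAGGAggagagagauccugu
Poly-A selected libraries measure the host transcripts and not the mature microRNAs, so the values below are of Dgcr8 and Tnrc6b mRNA.

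In level, which FPKM makes comparable between genes because it is per length, Tnrc6a was the highest member, with a mean of 54.8 FPKM over the 12 libraries. Dicer1 followed at 28.2, Dgcr8 at 21.0, Drosha at 17.5, Ago2 at 13.5 and Tnrc6b at 12.4 FPKM. Ago4 at 7.06 and Tarbp2 at 6.63 FPKM were lower, and the Ago1 and Ago3 locus was lowest. Ranges over the 12 libraries did not overlap between Tnrc6b and Ago4, nor between Tarbp2 and the Ago1 and Ago3 locus. At every other step of this order the neighbours' ranges overlapped.

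**Figure D1:**
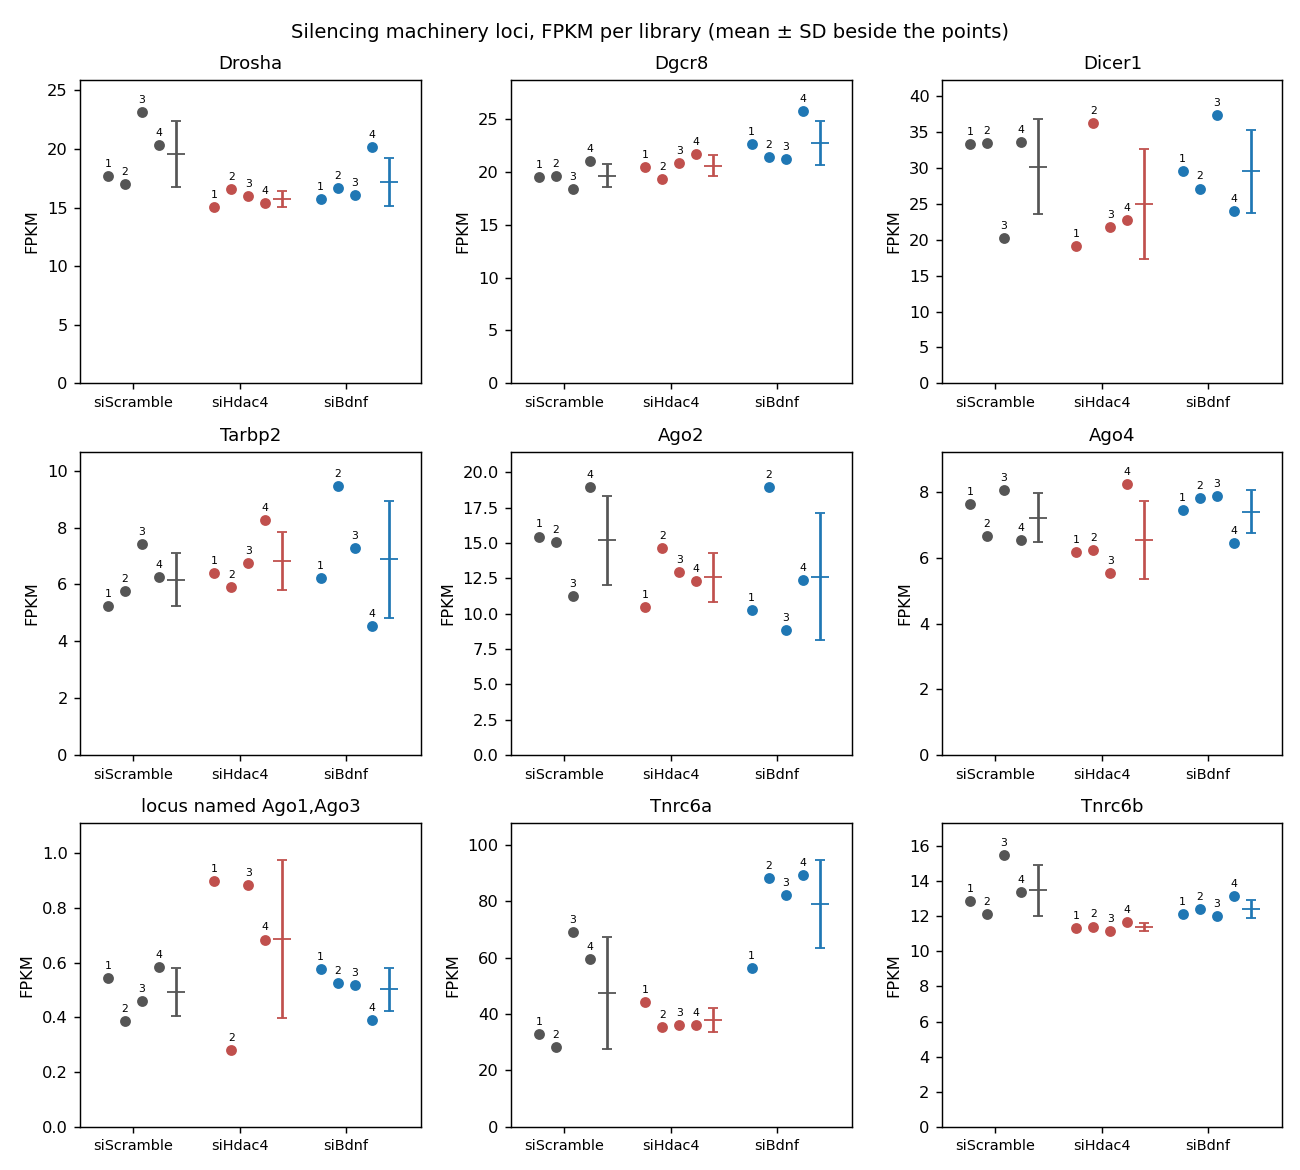
FPKM (y axis, from 0) of the 9 loci in the 3 groups (x axis). Each numbered point is a library and the bar beside it is the mean ± SD (n = 4). The widest difference between siHdac4 and siBdnf is at Tnrc6a, 37.9 against 79.0 FPKM, and the siHdac4 libraries lie below all siScramble libraries at Drosha and Tnrc6b.

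None of the 8 tested members passed the threshold (adjusted p below 0.05 in limma's moderated test on log2(FPKM + 1), Benjamini-Hochberg over all loci) in any comparison. Of all loci tested, 0.261% were called between siHdac4 and siScramble, 0.277% between siBdnf and siScramble, 0.0272% between siHdac4 and siBdnf and 0.299% over the 3 groups together. An unadjusted p below 0.05 was reached by 2 members in siHdac4 against siScramble, Drosha and Tnrc6b, both lower, where 5.63% of all loci were lower at that p. In siBdnf against siScramble 2 members reached it, Tnrc6a and Dgcr8, both higher, where 5.72% of all loci were. Between siHdac4 and siBdnf it was 1, Tnrc6a, lower in siHdac4, where 10.4% of all loci were. Over the 3 groups together these 4 genes had an unadjusted p below 0.05, as did 12.9% of all loci tested. Both comparisons with siScramble use the same 4 control libraries. Since the tissue was measured in bulk, fewer cells of a type and less RNA per cell cannot be told apart.

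The median log2 fold change of the 8 members was -0.22 in siHdac4 against siScramble, with 6 of 8 below 0, beside a median of -0.0095 and 52.5% below 0 over all loci tested. In siBdnf against siScramble the members' median was 0.0065, with 4 of 8 below 0, beside 0.020 and 43.6% over all loci. Between siHdac4 and siBdnf it was -0.13, with 6 of 8 below 0, beside -0.027 and 56.9% over all loci. The 8 members are typed as protein-coding. Over protein-coding loci alone 49.5%, 49.3% and 50.5% lay below 0 in the same order of comparisons. Their medians were 0.0020, 0.0022 and -0.0016. The median of -0.22 depended on the setting. It was -0.12 with 5 of 8 below 0 without siScramble 3 and 4, -0.13 without siScramble 1 and 3, -0.12 without siScramble 3 alone, -0.12 with the choroid plexus level as a covariate and -0.11 after correction for transcript length and GC content.

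**Figure D2:**
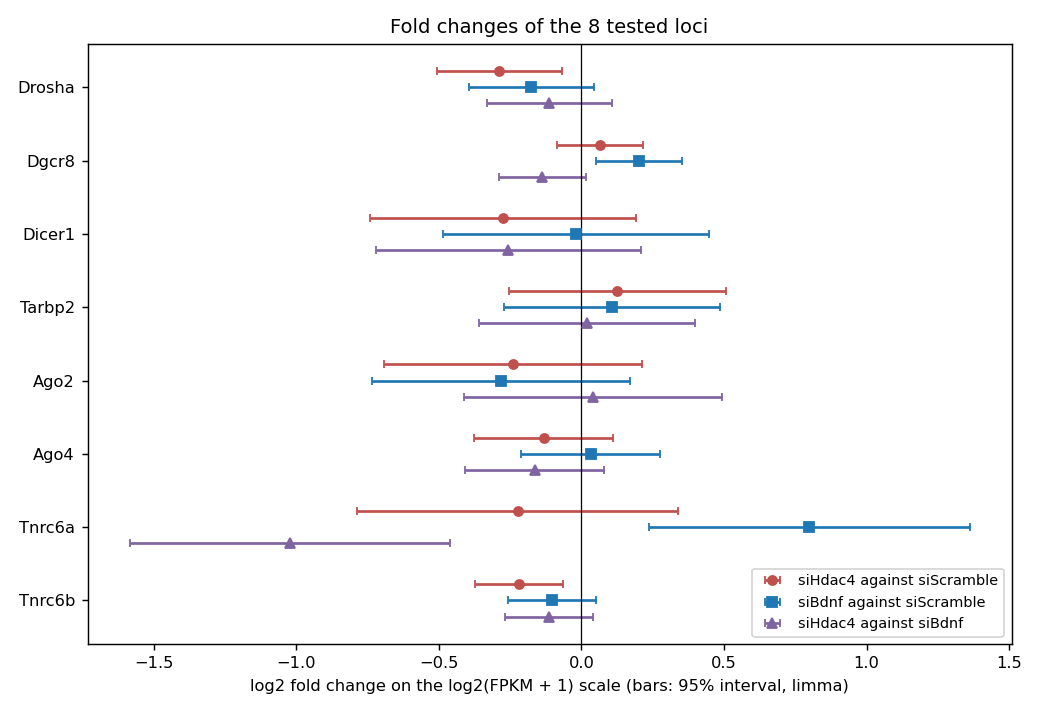
Log2 fold change on the log2(FPKM + 1) scale (x axis) of the 8 tested loci (y axis) in the 3 comparisons, with 95% intervals from limma as bars. Intervals leave out 0 for Drosha and Tnrc6b in siHdac4 against siScramble, for Dgcr8 and Tnrc6a in siBdnf against siScramble and for Tnrc6a in siHdac4 against siBdnf, where the estimate is -1.02.

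Some facts of the whole series bear on these values. Hdac4 was at 39.1 ± 5.94 FPKM in siScramble and 41.0 ± 5.93 in siHdac4, and Bdnf at 5.37 ± 0.174 in siScramble and 5.19 ± 0.255 in siBdnf (SD, n = 4 each). Neither targeted transcript differed between its siRNA group and siScramble (limma, adjusted p 0.863 and 0.906). Marker loci of neurons summed to 1281 to 1617 FPKM in siScramble, 1286 to 1521 in siHdac4 and 1530 to 1755 in siBdnf, and those of hippocampal principal cells to 412 to 654, 571 to 693 and 624 to 786 FPKM, with none at 0 throughout. The 8 choroid plexus loci summed to 16.1 to 2113 FPKM in siScramble, against 13.9 to 71.4 in siHdac4 and 20.3 to 89.3 in siBdnf, and were highest in siScramble libraries 1 and 3. A library's level at each locus, taken as the deviation from that locus's mean over the 12 libraries, was correlated with transcript length. Spearman's correlation across loci was -0.10 to 0.18 in siScramble, -0.18 to -0.078 in siHdac4 and -0.079 to 0.12 in siBdnf, with siScramble 3 and 4 at the high end. Fold changes without siScramble 1 and 3 or without siScramble 3 and 4 are given below for members that they moved by over 1.5 times. The tables hold no read totals, so depth is unknown.

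Drosha, the catalytic subunit of the Microprocessor, lies at chr15:12824803-12935133 in the tables' coordinates. The sources used here do not name the genome build of those coordinates, but the locus overlaps the gene of that name in the GENCODE annotation of GRCm38, as do all those below except where stated. Its level was 17.7, 17.0, 23.2 and 20.4 FPKM in siScramble 1 to 4. In siHdac4 it was 15.0, 16.5, 15.98 and 15.4 FPKM, and in siBdnf 15.7, 16.7, 16.1 and 20.2 FPKM. All 4 siHdac4 libraries lay below all 4 siScramble libraries, a separation in that direction that 2.04% of all loci tested showed. In siBdnf 3 libraries, at up to 16.7 FPKM, also lay below the controls, while the last lay among them.

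Drosha averaged 19.6 ± 2.79, 15.7 ± 0.669 and 17.2 ± 2.06 FPKM in siScramble, siHdac4 and siBdnf (SD, n = 4). Against siScramble the log2 fold change was -0.29 in siHdac4 (SE 0.1001, 95% interval -0.51 to -0.070, adjusted p = 0.458) and -0.18 in siBdnf (adjusted p = 0.633). It was -0.14 in siHdac4 and -0.024 in siBdnf without siScramble 3 and 4, the libraries with the highest Drosha levels, and -0.096 in siBdnf without siScramble 3 alone. The 4 thalamus marker loci, listed as a neighbouring tissue, summed to 12.7 to 17.3 FPKM in siScramble, 9.23 to 11.9 in siHdac4 and 10.2 to 14.3 in siBdnf. Their sum thus separated siHdac4 from siScramble as Drosha did, but no single one of the 4 loci did. Prkcd, the largest, was at 7.26 to 10.2 FPKM in siHdac4 and at 8.42 to 13.5 in siScramble. Of the 3 loci tested, 1 lay above and 2 below 0. The part of these markers in the result was not tested. The authors' deposited table gives Drosha a log2 fold change of -0.315 in siHdac4, with p = 0.0038 and an FDR of 0.212.

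Dgcr8, the subunit that recognises the hairpin, lies at chr16:18248846-18289248 and contains the 4 mature sequences of miR-1306 and miR-3618 shown above. Its level was 19.5, 19.6, 18.4 and 21.0 FPKM in siScramble, and 20.4, 19.3, 20.8 and 21.7 FPKM in siHdac4. In siBdnf it was 22.6, 21.4, 21.3 and 25.7 FPKM. The siBdnf libraries were all above the siScramble libraries, as at 3.28% of all loci tested, and the siHdac4 libraries overlapped both groups. Means were 19.6 ± 1.09, 20.6 ± 0.992 and 22.7 ± 2.08 FPKM in that order (SD, n = 4). The log2 fold change in siBdnf against siScramble was 0.20 (SE 0.0695, 95% interval 0.049 to 0.35, adjusted p = 0.464). In siHdac4 it was 0.065 (adjusted p = 0.742), or 0.015 without siScramble 1 and 3. In the authors' deposited table Dgcr8 has a log2 fold change of 0.214 and p = 0.195 in siBdnf.

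The proportion of the 2 Microprocessor subunits was therefore looked at in each library, a ratio chosen after their values were seen and given without a test. Drosha over Dgcr8, in FPKM, was 0.910, 0.868, 1.26 and 0.968 in siScramble. It was 0.736, 0.858, 0.767 and 0.709 in siHdac4 and 0.695, 0.779, 0.756 and 0.784 in siBdnf. Every siScramble library had a higher ratio than the 8 libraries of the other groups, with means of 1.00 ± 0.178, 0.767 ± 0.0647 and 0.753 ± 0.0412 (SD, n = 4). The narrowest gap was between siScramble 2 and siHdac4 2, at 0.868 and 0.858. The ratio joins a gene lower in siHdac4 to one higher in siBdnf, against the same 4 control libraries. It is thus no evidence beyond the values of the 2 genes. The share of locus pairs that separate in this way was not counted.

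**Figure D3:**
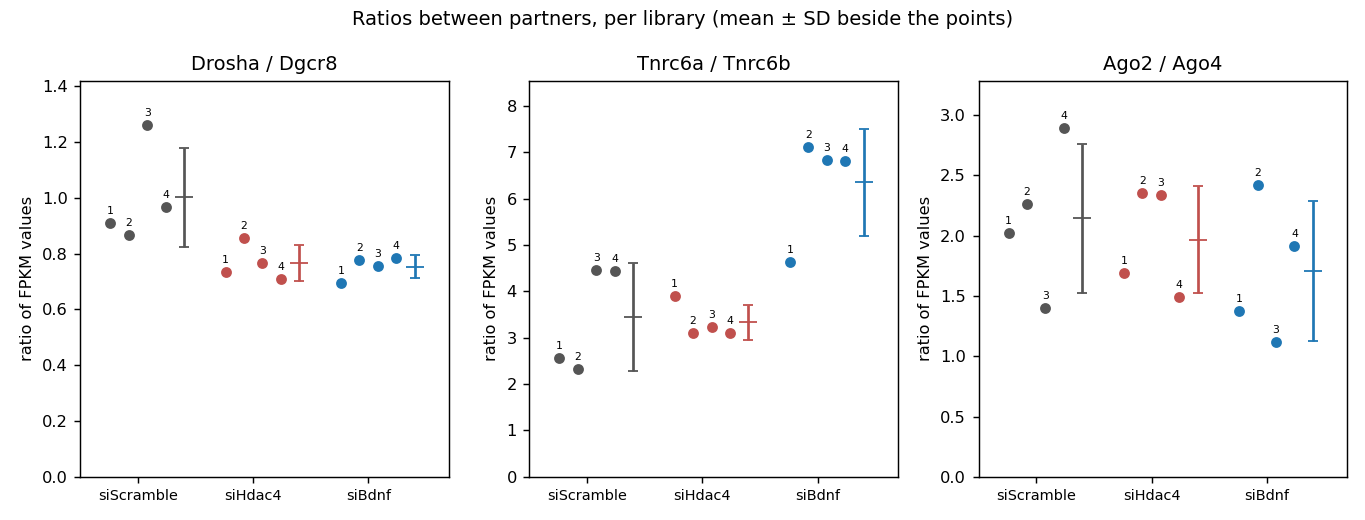
Ratios of FPKM values (y axis, from 0) between Drosha and Dgcr8, Tnrc6a and Tnrc6b, and Ago2 and Ago4, by group (x axis). Numbered points are libraries and bars are mean ± SD (n = 4). Drosha over Dgcr8 is at 0.868 or above in siScramble and at 0.858 or below in the other groups, and Tnrc6a over Tnrc6b is at 4.63 or above in siBdnf.

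Dicer1, the nuclease that cuts the precursor hairpin to its mature length, lies at chr12:104687372-104751968. Its level was 33.4, 33.5, 20.3 and 33.6 FPKM in siScramble. In siHdac4 it was 19.2, 36.3, 21.8 and 22.8 FPKM, and in siBdnf 29.6, 27.2, 37.5 and 24.03 FPKM. In siScramble 1 library was far below 3 close ones, and in siHdac4 1 was far above 3 close ones, so the groups overlapped. The log2 fold change was -0.28 in siHdac4 (95% interval -0.74 to 0.19, adjusted p = 0.644) and -0.019 in siBdnf (95% interval -0.49 to 0.45, adjusted p = 0.989). The value in siHdac4 was -0.45 without siScramble 1 and 3, -0.45 without siScramble 3 and 4, -0.45 without siScramble 3 alone, -0.46 without siHdac4 2, -0.17 without siHdac4 1 and -0.48 with the choroid plexus level as a covariate. In siBdnf it was -0.20 without siScramble 1 and 3, -0.19 without siScramble 3 and 4 and -0.21 with that covariate. The 3 intronic loci that carry the name Dicer1 had log2 fold changes of -0.30 to -0.11 in siHdac4 against siScramble, and none was called, the smallest adjusted p being 0.532 and no unadjusted p being below 0.05.

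Tarbp2, the double-stranded RNA-binding partner of Dicer1, lies at chr15:102518346-102523946. Its level was 5.25, 5.78, 7.42 and 6.25 FPKM in siScramble, and 6.41, 5.90, 6.74 and 8.26 FPKM in siHdac4. In siBdnf it spread from 4.54 to 9.46 FPKM, with 6.23 and 7.29 between. The siBdnf libraries alone covered the whole range of the other groups. Log2 fold changes against siScramble were 0.13 in siHdac4 (95% interval -0.25 to 0.51) and 0.11 in siBdnf (95% interval -0.27 to 0.49), with adjusted p of 0.809 and 0.899. Without siScramble 3 and 4 they were 0.26 and 0.24. Leaving out 1 library gave 0.042 (without siHdac4 4) to 0.21 (without siScramble 3) in siHdac4 and -0.042 (without siBdnf 2) to 0.26 (without siBdnf 4) in siBdnf.

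Ago2, the Argonaute that cuts its target, lies at chr15:73095634-73184895. Its level was 15.5, 15.0, 11.3 and 19.0 FPKM in siScramble. In siHdac4 it was 10.4, 14.7, 12.9 and 12.3 FPKM, and in siBdnf 10.3, 19.0, 8.83 and 12.4 FPKM. The lowest library was in siBdnf, the highest values, at 19.0 FPKM, were in 1 siScramble and 1 siBdnf library, and the 3 groups overlapped. Means were 15.2 ± 3.15, 12.6 ± 1.74 and 12.6 ± 4.48 FPKM (SD, n = 4). The log2 fold change was -0.24 in siHdac4 (95% interval -0.69 to 0.21, adjusted p = 0.680) and -0.28 in siBdnf (95% interval -0.73 to 0.17, adjusted p = 0.719). Without siScramble 1 and 3 these were -0.41 and -0.45, and with the choroid plexus level as a covariate -0.43 and -0.46. In siHdac4 the value was -0.37 without siScramble 3, -0.13 without siScramble 4 and -0.13 after correction for length and GC content. In siBdnf it was -0.48 without siBdnf 2, -0.14 without siBdnf 3 and -0.17 without siScramble 4.

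Ago4, which binds small RNAs but is not known to cut targets, lies at chr4:126488106-126533454. Its level was 7.63, 6.65, 8.07 and 6.55 FPKM in siScramble, 6.17, 6.23, 5.52 and 8.25 FPKM in siHdac4 and 7.45, 7.83, 7.88 and 6.46 FPKM in siBdnf. In siHdac4 3 libraries lay below all controls and the last above them. Log2 fold changes against siScramble were -0.13 (95% interval -0.38 to 0.11) and 0.032 (95% interval -0.21 to 0.28), with adjusted p of 0.676 and 0.959. In siHdac4 the value was -0.023 without siScramble 1 and 3, -0.052 with the choroid plexus level as a covariate, -0.087 after correction for length and GC content, -0.24 without siHdac4 4, -0.067 without siHdac4 3 and -0.084 without siScramble 3. In siBdnf it was 0.14 without siScramble 1 and 3.

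The locus named for both Ago1 and Ago3 spans 1305 bases, chr4:126330828-126332132. It overlaps the 3′ end of Ago3 in the GENCODE annotation of GRCm38 (chr4:126331704-126429556, minus strand) and does not touch Ago1 (chr4:126435012-126468583). Its values thus cover a small part of Ago3 at most and are no measure of whole Ago1 or Ago3 transcripts. They were 0.543, 0.387, 0.459 and 0.583 FPKM in siScramble, 0.896, 0.280, 0.883 and 0.684 in siHdac4 and 0.576, 0.524, 0.519 and 0.390 in siBdnf. With no filter on low values, limma gave a log2 fold change of 0.16 in siHdac4 (adjusted p = 0.646) and 0.0092 in siBdnf (adjusted p = 0.990) against siScramble.

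Of the FPKM summed over the 3 Argonaute loci, Ago2 made up 65.8 ± 6.62%, 63.4 ± 5.49% and 60.3 ± 8.16% in siScramble, siHdac4 and siBdnf (SD, n = 4). Ago4 made up 32.1 ± 6.53%, 33.0 ± 4.89% and 37.2 ± 7.57%. These shares leave out nearly all of Ago1 and Ago3. The 3 groups' ranges overlapped for both. Ago2 over Ago4 ran from 1.40 to 2.90 in siScramble, from 1.49 to 2.35 in siHdac4 and from 1.12 to 2.42 in siBdnf.

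Tnrc6a, a scaffold protein that ties Argonaute to deadenylation, was the member with the widest difference. Its level was 32.9, 28.2, 69.2 and 59.4 FPKM in siScramble. In siHdac4 it was 44.2, 35.3, 36.0 and 36.3 FPKM, and in siBdnf 56.3, 88.2, 82.1 and 89.5 FPKM. All siHdac4 libraries lay below all siBdnf libraries, as at 8.45% of all loci tested. The siScramble libraries formed a low and a high pair, and their range crossed the ranges of both other groups.

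Tnrc6a averaged 47.4 ± 20.0 FPKM in siScramble, with 37.9 ± 4.20 in the siHdac4 and 79.0 ± 15.5 in the siBdnf libraries (SD, n = 4). Between siHdac4 and siBdnf, which share no library, the log2 fold change was -1.02 (SE 0.257, 95% interval -1.58 to -0.46, adjusted p = 0.212). In siBdnf against siScramble it was 0.80 (95% interval 0.24 to 1.36, adjusted p = 0.447) and in siHdac4 -0.22 (adjusted p = 0.762). The call for siHdac4 against siBdnf depended on which libraries set the spread, since with those 2 groups alone the adjusted p was 0.0395. Without siScramble 3 and 4, the high pair, the adjusted p was 0.0431 for siHdac4 against siBdnf, and siBdnf against siScramble had a log2 fold change of 1.32 with an adjusted p of 0.00780. This leaves the low pair of controls, so that larger fold change follows from the choice and is no further evidence of a rise. Calls over all loci also rose. In siHdac4 against siBdnf they went from 5 to 152 with those groups alone and to 54 without siScramble 3 and 4. In siBdnf against siScramble they went from 51 to 278 without that pair. In siHdac4 against siScramble leaving out siScramble 3 and 4 turned the sign to 0.30. The value was -0.12 without siScramble 1 and 3 and ran from -0.43 (without siScramble 2) to -0.013 (without siScramble 3) when 1 library was left out. Summed marker loci also separated siHdac4 from siBdnf without overlap for neurons (given above) and for microglia, at 62.2 to 68.9 against 57.2 to 61.3 FPKM. The neuron sum was mostly Snap25, at 1040 to 1293 against 1309 to 1543 FPKM. Of the 6 neuron loci 3 lay above and 3 below 0. Among them Slc17a7 was higher in siHdac4, at 111 to 175 against 93.6 to 103 FPKM. The endothelium sum, at 448 to 471 against 481 to 502 FPKM, was mostly 1 locus shared by Ddx5, Pecam1 and Polg2. Of its 4 loci 3 lay above 0, so that sum is no measure of endothelium. The part of these markers in the difference of Tnrc6a was not tested. In the authors' deposited table Tnrc6a has a log2 fold change of 0.737 and p = 0.153 in siBdnf.

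The tables place Tnrc6a on a stretch wider than the gene, chr7:123031265-123369838, 338574 bases against chr7:123123885-123195296 in GENCODE on GRCm38. Arhgap17, a gene on the opposite strand, carries the same coordinates, as do the intronic Tnrc6a loci, so these are the coordinates of a merged stretch. Libraries were made to keep strand, but the sources used here do not say whether reads were assigned by strand. Arhgap17 was at 12.2 ± 2.26, 12.1 ± 0.450 and 12.2 ± 1.49 FPKM in siScramble, siHdac4 and siBdnf (SD, n = 4), with log2 fold changes of 0.0020 and 0.0081 against siScramble and -0.0060 between siHdac4 and siBdnf.

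The 6 intronic loci named Tnrc6a were tested as well and none was called in any comparison. Between siHdac4 and siBdnf 4 of the 6 were lower in siHdac4, with log2 fold changes of -1.05 to 0.026, and 1 had an unadjusted p below 0.05. That locus, XLOC_081237, was at 4.32, 11.5, 12.9 and 12.4 FPKM in siScramble, 6.44, 4.02, 4.59 and 11.6 in siHdac4 and 12.1, 16.6, 11.5 and 16.1 in siBdnf. In siHdac4 3 libraries were below every siBdnf library, while the last was at the lower end of siBdnf (adjusted p = 0.226). The other 5 did not show the difference of Tnrc6a itself, their log2 fold changes lying from -0.33 to 0.026.

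**Figure D4:**
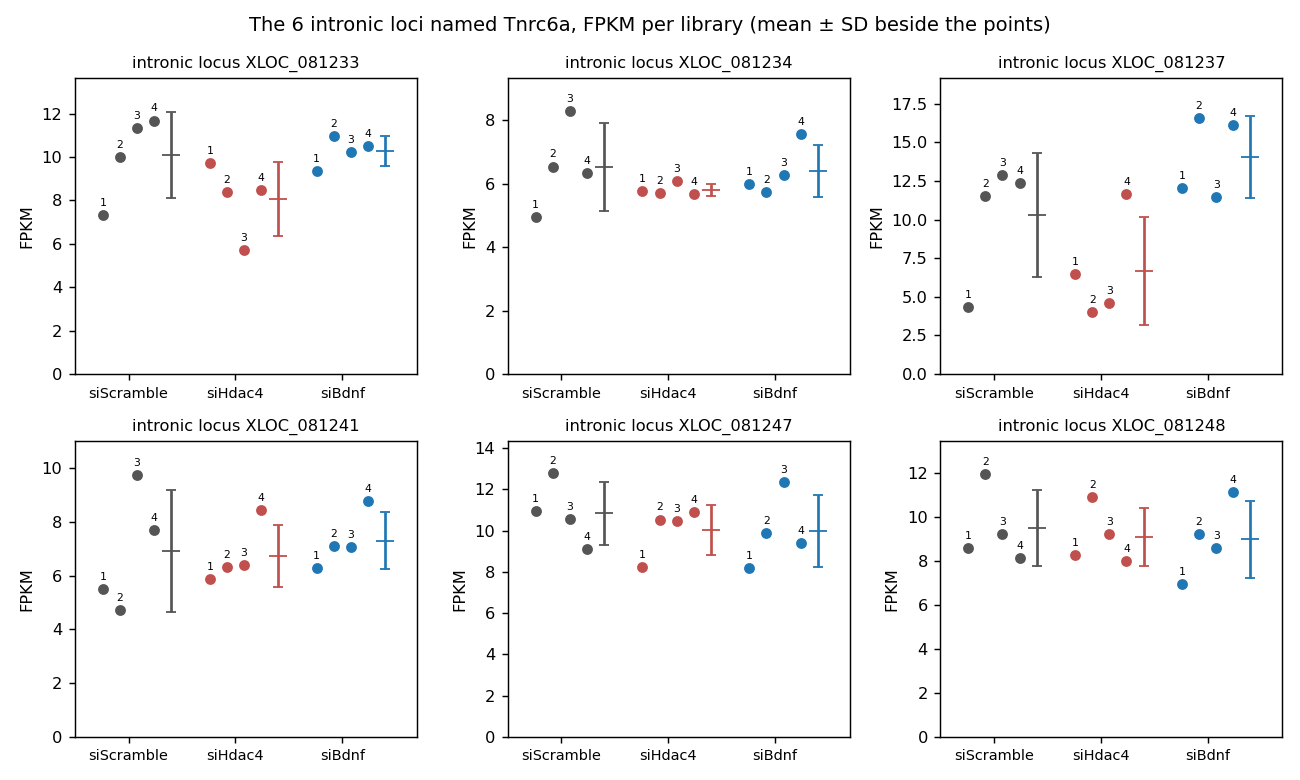
FPKM (y axis, from 0) of the 6 intronic loci named Tnrc6a, by group (x axis), with numbered points for libraries and bars for mean ± SD (n = 4). XLOC_081237 spans 4.02 to 11.6 FPKM in siHdac4 and 11.5 to 16.6 in siBdnf, and the groups overlap at every one of the 6.

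Tnrc6b, the related scaffold, lies at chr15:80711042-80941138 and holds miR-5113. Its level was 12.9, 12.1, 15.5 and 13.4 FPKM in siScramble. In siHdac4 it was 11.3, 11.4, 11.2 and 11.7 FPKM, and in siBdnf 12.2, 12.4, 12.02 and 13.1 FPKM. The siHdac4 libraries lay close together and below all the others, where 2.04% of all loci lay lower than siScramble and 8.45% lower than siBdnf without overlap. The share of loci lower than both groups at once was not counted. Of the marker sums given above, that of thalamus separated siHdac4 from siScramble only. Those of neurons and microglia separated it from siBdnf only, with microglia higher in siHdac4. None lay apart from both groups as Tnrc6b did, and the part of these markers at Tnrc6b was not tested. Means were 13.5 ± 1.45, 11.4 ± 0.218 and 12.4 ± 0.505 FPKM (SD, n = 4). In siHdac4 against siScramble the log2 fold change was -0.22 (SE 0.0703, 95% interval -0.37 to -0.065, adjusted p = 0.436), in siBdnf -0.10 (adjusted p = 0.694), and between siHdac4 and siBdnf -0.11 (adjusted p = 0.437). The longest annotated Tnrc6b transcript has 17332 bases, the longest of the 8 tested members. Once each library was corrected for transcript length and GC content the log2 fold change in siHdac4 was -0.095, and without siScramble 3 and 4 it was -0.12. In siBdnf these were -0.018 and -0.0078, with -0.034 without siScramble 1 and 3 and -0.039 without siScramble 3 alone or with the choroid plexus level as a covariate.

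Tnrc6a over Tnrc6b, also a ratio chosen after the values were seen, was 2.55, 2.33, 4.46 and 4.44 in siScramble. It was 3.90, 3.09, 3.22 and 3.10 in siHdac4 and 4.63, 7.12, 6.83 and 6.80 in siBdnf. Every siBdnf library had a higher ratio than every other library, with siBdnf 1 close to the siScramble high pair. This separation was not kept after correction for length and GC content. Corrected Tnrc6a was at 5.86 in siBdnf 1 and 6.03 in siScramble 3 on the log2(FPKM + 1) scale. Corrected Tnrc6b was at 3.80 and 3.85, so Tnrc6a exceeded it by less in siBdnf 1 than in siScramble 3. The share of locus pairs that separate like the uncorrected ratio was not counted.

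Across the 12 libraries Drosha and Tnrc6b varied together. Pearson's r of log2(FPKM + 1) was 0.927 (permutation p = 2e-05 from 100000 permutations, adjusted p = 0.00056) and Spearman's correlation 0.846 (permutation p = 0.00107, adjusted p = 0.0300), adjusted over the 28 pairs of members. Permutations ran over all 12 libraries without regard to group, so these p-values also take in differences between the groups. The share of all locus pairs with such an r was not counted. Without siScramble 3 and 4, the 2 libraries farthest out in Drosha, r was 0.795 (n = 10), and r of the deviations from the group means was 0.873. Correction for length and GC content brought r to 0.645. Both genes were highest in siScramble 3, followed by siScramble 4 and siBdnf 4. In the same 3 libraries the deviation of level from each locus's mean correlated most with transcript length, at 0.16, 0.18 and 0.12. The part of that length measure in the correlation was not tested further. No other of the 28 pairs passed an adjusted permutation p of 0.05, with r from -0.24 to 0.49. For those pairs r of the deviations from the group means ran from -0.62 to 0.78. It was highest for Tnrc6a with Tnrc6b (0.78) and with Drosha (0.76), so within groups the likeness was not particular to Drosha and Tnrc6b.

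**Figure D5:**
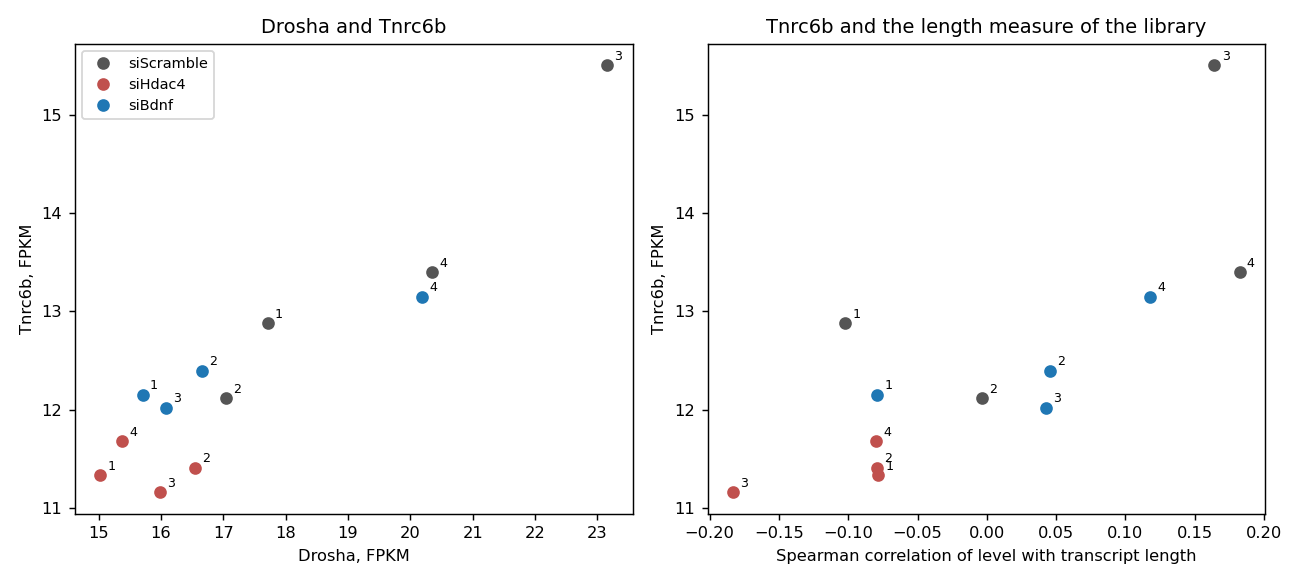
Left, Tnrc6b against Drosha, both in FPKM. Right, Tnrc6b in FPKM against each library's Spearman correlation of level, taken as the deviation from each locus's mean, with transcript length. Numbered points are the 12 libraries coloured by group, and axes do not start at 0. siScramble 3 has the highest Drosha and Tnrc6b, 23.2 and 15.5 FPKM, and the siHdac4 libraries lie at the lower left of both plots.

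The genes whose pattern over the 12 libraries was most like that of Ago2, by Pearson's r of log2(FPKM + 1) among 11060 other protein-coding loci, were Traf3 (r = 0.871), Sdk2 (0.833), Rita1 (0.827), Fscn1 (0.822) and Cntnap3 (0.818). For Dicer1 they were 4930539E08Rik (r = 0.842), Rasgrp2 (0.833), Ccdc90b (0.826), Gtf2f1 (0.808) and Ncam2 (0.798). These are the highest of many correlations over the same 12 libraries and are a description.

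The proteins that work beside the members were taken from fixed lists, and no locus of any list was called in any comparison by limma. Over all loci tested an unadjusted p below 0.05 was reached by 10.1% in siHdac4 against siScramble, 8.85% in siBdnf against siScramble and 15.6% between siHdac4 and siBdnf. Fold changes lay below 0 at 52.5%, 43.6% and 56.9% of all loci in the same order, with medians of -0.0095, 0.020 and -0.027. Over protein-coding loci alone 49.5%, 49.3% and 50.5% lay below 0, with medians of 0.0020, 0.0022 and -0.0016. The counts and medians below are to be read against these values. Of the 18 microRNA processing partners 17 were tested. In siHdac4 against siScramble 3 had an unadjusted p below 0.05, 1 higher and 2 lower, with a median log2 fold change of -0.022. In siBdnf 15 of 17 lay above 0 with a median of 0.034, and 1 had such a p. Between siHdac4 and siBdnf 3 had such a p. Khsrp, which binds the terminal loop of some precursors and promotes their cutting, had means of 15.1 ± 1.52, 11.6 ± 1.23 and 14.2 ± 1.43 FPKM in siScramble, siHdac4 and siBdnf (SD, n = 4). Its log2 fold change in siHdac4 was -0.35 (adjusted p = 0.368). Srrt, which links the Microprocessor to capped transcripts, had -0.18 (adjusted p = 0.458). Xpo5, which exports the precursor from the nucleus, was at 17.7 ± 0.665, 17.4 ± 0.565 and 19.7 ± 0.838 FPKM, with 0.15 in siBdnf (adjusted p = 0.468).

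Of 19 partners of the silencing complex 16 loci were tested. An unadjusted p below 0.05 was reached by 2 in siHdac4 and 1 in siBdnf against siScramble and by 3 between siHdac4 and siBdnf, and medians lay between -0.0080 and -0.0039. Fmr1, the fragile X protein gene, had a log2 fold change of 0.13 in siBdnf against siScramble (adjusted p = 0.501). Trim32, a ubiquitin ligase, had 0.17 in siHdac4 against siBdnf (adjusted p = 0.226). Among the 9 tested chaperone loci of Argonaute loading, 2 had an unadjusted p below 0.05 in siHdac4 against siScramble, both higher, and none in the other comparisons. They were Ahsa1, the activator of Hsp90 (log2 fold change 0.18, adjusted p = 0.456), and Hspa8, the constitutive Hsc70 (0.18, adjusted p = 0.489). Stip1, which bridges both chaperones, had -0.18 (adjusted p = 0.631).

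Deadenylation and decapping factors, which finish the repression that Tnrc6 starts, held 28 tested loci of 27 genes. In siHdac4 against siScramble 19 of 28 lay below 0, with a median of -0.075, and 6 had an unadjusted p below 0.05, 4 lower and 2 higher. In siBdnf 15 of 28 lay below 0 with a median of -0.021 and 1 had such a p, and between siHdac4 and siBdnf 18 of 28 lay below 0 and 4 had such a p. Dcp2, the decapping enzyme, was at 23.6 ± 1.40, 21.3 ± 1.61 and 26.1 ± 1.51 FPKM in siScramble, siHdac4 and siBdnf, with -0.29 between siHdac4 and siBdnf (adjusted p = 0.212). Rqcd1, the Ccr4-Not subunit that binds Tnrc6 proteins, was at 10.3 ± 1.89, 9.79 ± 1.37 and 13.5 ± 1.20 FPKM, with 0.37 in siBdnf against siScramble (adjusted p = 0.462). Eif4enif1, which joins the cap-binding protein to the repressed mRNA, had -0.42 between siHdac4 and siBdnf (adjusted p = 0.224).

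Of the sensors of double-stranded RNA, which can respond to a supplied duplex, 7 were tested. In siHdac4 against siScramble 7 of 7 lay below 0, with a median of -0.12, and 1 had an unadjusted p below 0.05. In siBdnf 5 of 7 lay below 0, with a median of -0.10 and none at such a p, and between siHdac4 and siBdnf 5 of 7 with 1. Dhx58, the sensor LGP2, ran from 0.822 to 2.38 FPKM in siScramble, from 0 to 0.798 in siHdac4 and from 0.611 to 2.44 in siBdnf, with -0.92 in siHdac4 against siScramble (adjusted p = 0.370). Ifih1 and Ddx58, the sensors MDA5 and RIG-I, had -0.15 and -0.19 (adjusted p = 0.578 and 0.570). No group went without an siRNA, so these values do not compare treated with untreated mice.

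Piwi genes, which serve the germline's own small RNA pathway, mostly had no locus or a low level. Of 13 genes 5 had a locus and 2 loci reached the mean of 1 FPKM and were tested, neither with an unadjusted p below 0.05. One of them, which Piwil2 shares with Polr3d, cannot be assigned to Piwil2. The other, the RNA helicase gene Ddx4, was at 1.14 ± 0.147, 1.14 ± 0.260 and 1.19 ± 0.199 FPKM (SD, n = 4). Of the long transcripts that host microRNAs 6 were tested and none had an unadjusted p below 0.05. The locus of Mirg and Rian, named with further genes of the same imprinted cluster, had means of 306, 303 and 331 FPKM in siScramble, siHdac4 and siBdnf, with 275 to 326 in the siScramble libraries. Meg3 was at 193 ± 32.5, 174 ± 3.45 and 194 ± 6.45 FPKM, and Mir99ahg at 15.8 ± 1.00, 14.7 ± 1.78 and 14.0 ± 1.93 FPKM. In siHdac4 against siScramble the 6 lay below 0, with a median of -0.056. Among 16 tested loci that the tables type as miRNA, a list added after the files were seen, 1 had an unadjusted p below 0.05 in siBdnf, none in siHdac4 against siScramble and 2 between siHdac4 and siBdnf. These values come from poly-A selected RNA over such loci, not from mature microRNAs.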

How the data were processed

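Per the labels' protocols, hippocampal RNA was isolated with TRIzol and turned into strand-keeping, poly-A selected NEBNext libraries. Per the submitters' processing notes, TopHat2 2.0.9, Cufflinks and Cuffdiff were used, without versions for the last pair. The sources used here do not give the build, the annotation or the scaling between libraries. The authors deposited FPKM values per library for 22306 loci in 2 tables whose siScramble columns were identical, and their own log2 fold changes, p-values and FDR, used here where the authors' deposited table is named.

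FPKM values are not counts, so log2(FPKM + 1) was tested with limma 3.58.1 in R 4.3.3 (trended prior variance, all 3 groups in 1 fit, no covariates) wherever the mean over the 12 libraries reached 1 FPKM. P-values were adjusted over the 18387 loci tested (Benjamini-Hochberg) and called below 0.05. Fold changes on this scale understate the change of low genes. The test was checked on simulated data. Correlations used Python 3.11.15, pandas 2.3.3 and numpy 2.4.6 with permutation p-values, and figures matplotlib 3.10.9.

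Members and lists were chosen with earlier results of these data known. Named genes are the members, both targets, the 3 of smallest p over the groups in each list, and the 5 most correlated with Ago2 and with Dicer1. One gene of the lists is not reported here. Alternatives covered the filter, pseudocount, scaling, variance prior, loci tested, library weights, length and GC content, choroid plexus level, replicate number and libraries left out. Names were matched to GENCODE on GRCm38, and microRNA sequences are RefSeq's.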

Additional observations from a re-analysis of the deposited data

Results flagged for a closer look

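Among 27 groups of 4 libraries (9 loci in 3 groups), 2 held a library far from the other 3 by Dixon's criterion, where chance gives about 1 in 20 groups. Dicer1 in siScramble 3 was at 20.3 FPKM, below 3 libraries at 33.4 to 33.6 FPKM. Tnrc6a in siHdac4 1 was at 44.2 FPKM, above 3 libraries at 35.3 to 36.3 FPKM. Against the shared siScramble libraries the log2 fold change of Tnrc6a was 0.80 in siBdnf and -0.22 in siHdac4 (adjusted p = 0.447 and 0.762 in limma). The value in siHdac4 was 0.30 without siScramble 3 and 4, so opposite effects of the siRNAs are not established. The difference itself, siHdac4 against siBdnf, was -1.02 on the log2 scale (adjusted p = 0.212 in limma over all loci). Tnrc6a was lower in 4 of 4 siHdac4 libraries than in any siBdnf library, as were 8.45% of all loci tested.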

How the results depend on the processing

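Over 27 alternatives per comparison (26 over the 3 groups), no member became called except Tnrc6a, under the settings given in the report and, over the 3 groups without siScramble 3 and 4, with an adjusted p of 0.00943 (limma). Sign changes among members, none of them called, were Dicer1 in siBdnf against siScramble (0.021 after correction for length and GC content, -0.19 to 0.071 leaving out 1 library), Tarbp2 in siHdac4 against siBdnf (-0.023 with library weights, -0.14 to 0.17), Ago2 in the same comparison (-0.0037 with library weights, -0.098 to 0.24), Tarbp2 and Ago4 in siBdnf against siScramble (-0.042 to 0.26 and -0.0077 to 0.088) and Tnrc6a in siHdac4 against siScramble (0.30 without siScramble 3 and 4). The cause of these changes was not tested. Apart from these, every member kept its sign and its side of the threshold under the alternatives run.

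The number of loci called over the whole tables moved more. It was 48 in siHdac4 against siScramble, 51 in siBdnf against siScramble, 5 in siHdac4 against siBdnf and 55 over the 3 groups. In that order it was 1, 2, 3 and 4 after correction for length and GC content, which fitted 10375 loci. Without loci listed at 0 throughout a group it was 1, 0, 1 and 0 (1581 and 2325 at an unadjusted p below 0.05 for the second and the last, in limma). Without siScramble 1 and 3 it was 79 in siHdac4 against siScramble, 9 in siHdac4 against siBdnf and 96 over the groups. Without siScramble 3 and 4 it was 278 in siBdnf against siScramble, 54 in siHdac4 against siBdnf and 214 over the groups. With protein-coding loci only it was 1 in siHdac4 and 2 in siBdnf against siScramble and 3 over the groups. For siHdac4 against siBdnf it was 152 with those groups alone, 103 with library weights and 3 at a mean of at least 5 FPKM. Leaving out 1 library gave 44 to 248, 44 to 52, 2 to 23 and 46 to 126, the 248 without siScramble 1.

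With replicate number as a block the counts were 47, 52, 4 and 56, and no member's call changed. Same-numbered libraries' deviations correlated by -0.077 to 0.24, not above 0.1 in every pair, so the numbers were not taken to pair the libraries. The 3 pairs numbered 4 were all above 0.1 (0.13 to 0.24), as was 1 of the 3 pairs numbered 1 (0.13). FPKM without read totals leaves the depth, and the precision of the low Ago1 and Ago3 locus, unknown.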
